A study of Mus musculus with 27 samples.

Results

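Muscle cells hold little ATP and renew it from fast buffers. Adenylate kinase turns a pair of ADP molecules into ATP and AMP, and creatine kinase moves phosphate from phosphocreatine to ADP. AMP that builds up is deaminated to IMP by AMP deaminase and is made again from IMP by adenylosuccinate synthetase and adenylosuccinate lyase, a loop known as the purine nucleotide cycle, which is prominent in fast-twitch skeletal muscle. Described here are 9 genes of these steps out of the 35527 gene names on the array: the AMP deaminases Ampd1, Ampd2 and Ampd3, the adenylosuccinate enzymes Adsl and Adssl1, the adenylate kinase Ak1, and the creatine kinases Ckm, Ckmt2 and Ckb. They were chosen by name because Ampd1 is among the largest falls in Smn1deltaSKM against WT, so differences between those groups are given below as a description and without p-values.

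Single myofibers of the tibialis anterior, a fast leg muscle, were profiled on 27 one-colour arrays, 1 myofiber per array, in male mice given as 3 months old. The WT group held 8 myofibers from 2 wild type mice. The Smn1deltaSKM group held 12 myofibers from 3 mice in which Cre recombinase under the human alpha-skeletal actin promoter (HSA-Cre) removes the floxed exon 7 of Smn (F7/F7), so that the knockout is meant for skeletal muscle and other cells keep the gene. The Smn1deltaSKM+AFS group held 7 myofibers from 2 mice of that genotype that received mouse amniotic fluid stem (AFS) cells through the tail vein. By the methods those mice were treated at 3 months and killed 1 month later, while the labels give the same age for all groups. The study's results describe fewer AFS-treated fibers, from 3 mice, whereas the labels name 2 mice, and these 2 are the replicates used here. WT mice are described in the study both as littermates and as C57BL/6 mice carrying GFP. Values are log2 intensities relative to the 75th percentile of the same array, so a change in the total RNA of a myofiber is not seen. Group means are over mice, with the SD between mice, and the myofibers of a mouse are not counted as replicates of a genotype.

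Between 23183 and 37595 of 55681 probes had a usable value on an array. The median was 25156 in WT, 31433.5 in Smn1deltaSKM and 27431 in Smn1deltaSKM+AFS. One Smn1 probe (A_55_P2048848) lay at 1.85 ± 0.015 in WT (SD, n = 2 mice), at 0.16 ± 0.22 in Smn1deltaSKM (n = 3) and at 0.24 ± 0.82 in Smn1deltaSKM+AFS (n = 2). The other Smn1 probe (A_55_P2048560) lay at 2.40, 2.59 and 2.79 in these groups and did not separate them. All WT arrays lay on 1 slide and were scanned on a day of their own, so that WT cannot be told apart from its slide and scan day in any comparison below. The arrays of both Smn1deltaSKM groups shared 2 scan days. Of the 7 myofiber genes listed, among them Actn2 and Mb, all were measured on every Smn1deltaSKM and Smn1deltaSKM+AFS array and 6 on every WT array. Their summed level ran from 9.83 to 10.3 in WT, from 8.58 to 9.48 in Smn1deltaSKM and from 9.37 to 10.2 in Smn1deltaSKM+AFS, so that Smn1deltaSKM lay below WT without overlap. Ckm, itself one of the 9 genes, is part of this sum. In Smn1deltaSKM against WT, Myot was called lower, beside 13.9% of all genes called lower. As a description, 5 of the 7 were lower and 2 higher, with a median of -0.78 and a lowest value of -2.86. The part of this shift in the values below was not tested.

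The probes decide what each value means, and the sequences of the 4 on which most of the results turn are printed 5′ to 3′ as the array files give them. Those of the creatine kinases Ckm and Ckb are set side by side because they share most of their aligned bases. Capitals mark the bases that the pair share when aligned without gaps. The Ampd1 and Ckmt2 probes are printed in lower case throughout.
Ampd1 A_52_P880457: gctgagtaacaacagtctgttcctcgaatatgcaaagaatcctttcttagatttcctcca
Ckmt2 A_51_P165293: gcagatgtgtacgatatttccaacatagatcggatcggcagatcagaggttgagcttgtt
Ckm A_51_P380807: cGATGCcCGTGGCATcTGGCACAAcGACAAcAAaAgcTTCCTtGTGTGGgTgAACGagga
Ckb A_52_P385606: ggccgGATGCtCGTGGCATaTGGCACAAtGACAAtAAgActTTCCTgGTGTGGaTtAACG
The Ckm and Ckb probes overlap by 56 bases, of which 45 are identical, with a longest shared run of 8 bases. No other pair of creatine kinase probes shared more than 52.4% of its aligned bases. Whether Ckm cDNA binds the Ckb probe was not tested. By the array annotation (mm9) the Ampd1 probe lies at chr3:102902649-102902708 on the plus strand. The Ckm probe lies at chr7:20002222-20004829 on the plus strand, the Ckmt2 probe at chr13:91993242-91995390 and the Ckb probe at chr12:112908459-112909105, both on the minus strand. These last 3 cover 2608, 2149 and 647 genomic bases with 60 bases of probe and so reach across an exon junction. The exon or UTR at each position was not looked up, since no annotation of that build was used here. The labelling kit does not keep strand, so signal from an antisense transcript could not be told apart.

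The AMP deaminases differed from each other. Ampd1, the muscle isoform, ran from 4.61 to 6.21 in the 8 WT myofibers with a median of 5.98. In the 12 Smn1deltaSKM myofibers it ran from 0.78 to 3.61 with a median of 2.71, and in the 7 Smn1deltaSKM+AFS myofibers from 2.27 to 4.48 with a median of 3.00. Every myofiber of both mutant groups lay below every WT myofiber, and the mutant groups overlapped each other. Of all 16648 genes tested, 7.04% were lower without overlap in Smn1deltaSKM and 7.01% in Smn1deltaSKM+AFS. The means were 5.75 ± 0.17 in WT, 2.55 ± 0.30 in Smn1deltaSKM and 3.10 ± 0.47 in Smn1deltaSKM+AFS. Against WT the difference was -3.20 in Smn1deltaSKM (standard error 0.32), a 9.18-fold lower intensity, and -2.65 in Smn1deltaSKM+AFS (standard error 0.35), or 6.29-fold lower. Because Ampd1 was chosen for its fall against the same WT mice, neither is given a p. Between the mutant groups, which the choice of Ampd1 did not compare though it used the Smn1deltaSKM mice, the level was 0.55 higher after AFS cells (standard error 0.32, interval at 95% -0.18 to 1.27) and did not pass the test (limma, adjusted p = 1.00).

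**Figure D1:**
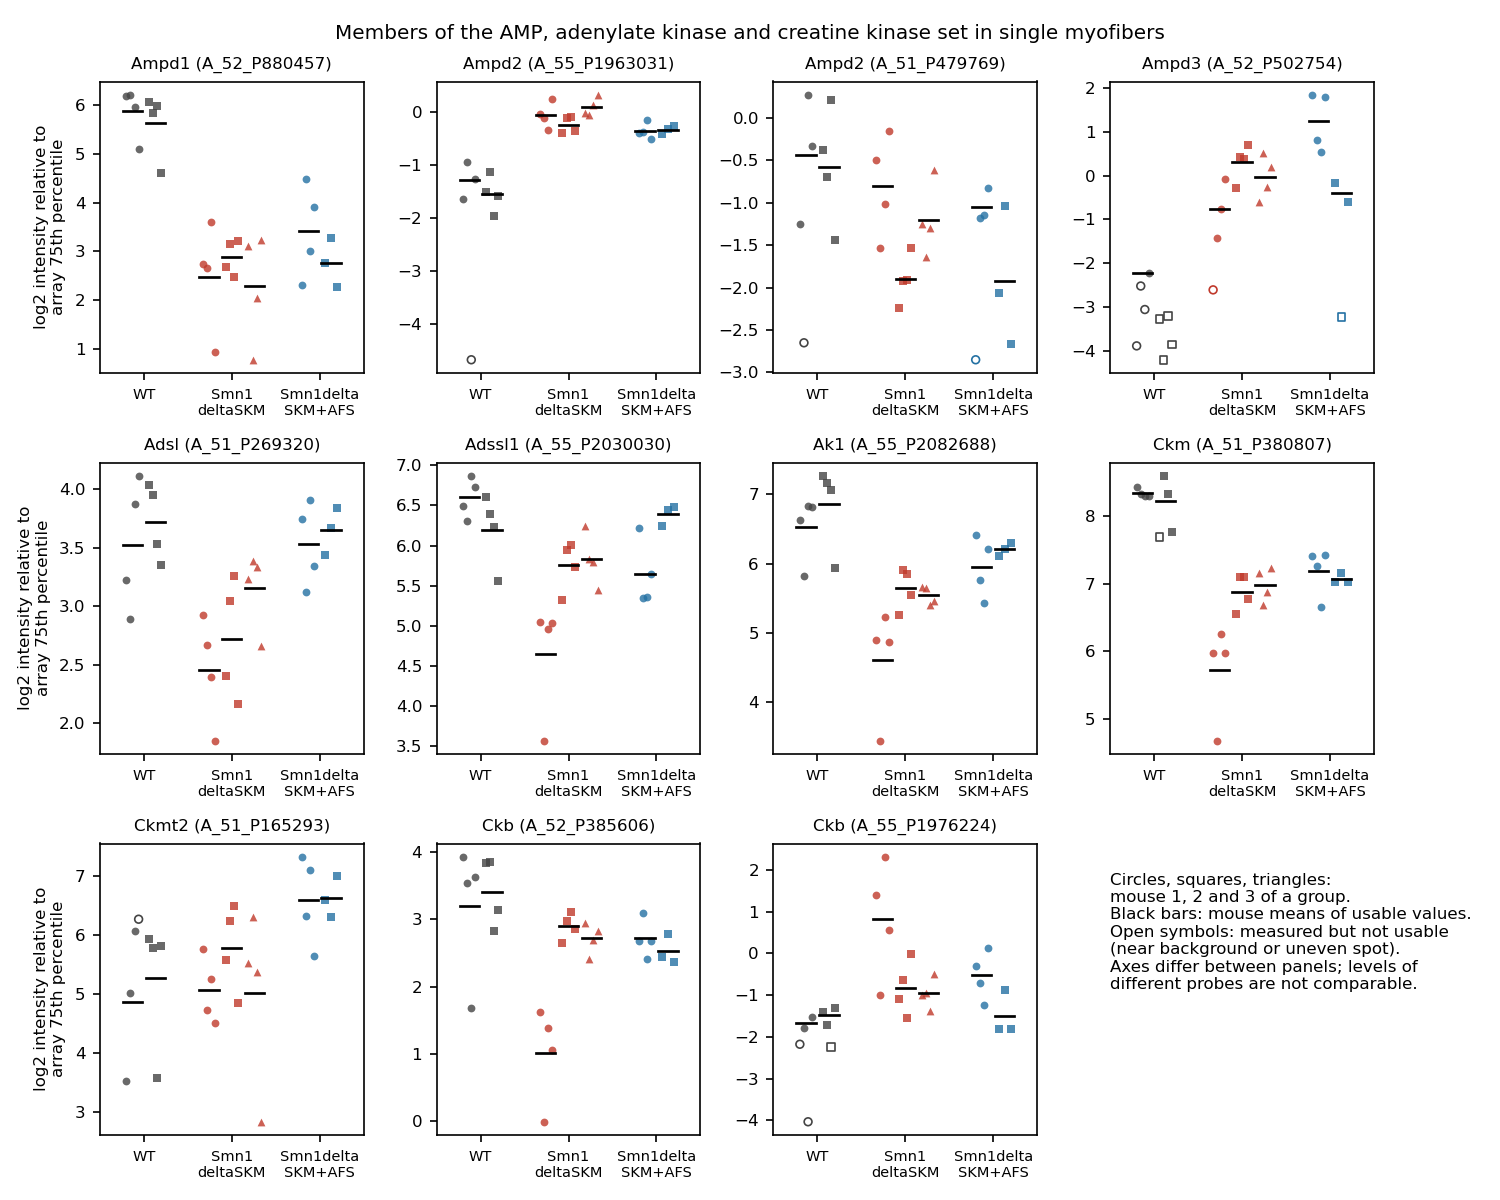
Each panel plots 1 probe, with the log2 intensity relative to the 75th percentile of the array on the y axis and the 3 groups on the x axis. Points are myofibers (circles, squares and triangles mark mice 1, 2 and 3), black bars are mouse means and open symbols are signals near background or from uneven spots. Ampd1 of both mutant groups lies below all WT myofibers, Ckmt2 is highest after AFS cells, and Adssl1, Ak1, Ckm and the first Ckb probe are lowest in mouse 1 of Smn1deltaSKM.

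Ampd2, the isoform of non-muscle tissues, was dim, and its 2 probes went opposite ways. A_55_P1963031 stood for the gene because it was the brighter of the pair over all arrays, though it was the dimmer in WT. It ran from -1.95 to -0.95 in 7 usable WT myofibers, from -0.40 to 0.32 in Smn1deltaSKM and from -0.51 to -0.15 in Smn1deltaSKM+AFS. Both mutant groups lay above all usable WT values. The background of genes higher without overlap was 3.86% for Smn1deltaSKM and 7.21% for Smn1deltaSKM+AFS. The means were -1.41 ± 0.19 in WT, -0.07 ± 0.17 in Smn1deltaSKM and -0.35 ± 0.02 in Smn1deltaSKM+AFS, and the difference between the last and WT (1.06, standard error 0.28) missed the threshold (limma, adjusted p = 0.0557). It passed in 7 of 20 other settings, among them the one without Smn1deltaSKM mouse 1 (limma, adjusted p = 0.0175), with adjusted p from 1.0e-05 to 0.982 over all settings. The probe A_51_P479769 gave -0.50 ± 0.10 in WT, -1.30 ± 0.56 in Smn1deltaSKM and -1.49 ± 0.62 in Smn1deltaSKM+AFS, and its mutant groups overlapped WT. Averaging the 2 probes gave 0.015 between Smn1deltaSKM+AFS and WT (limma, adjusted p = 0.982), so a direction for Ampd2 depends on the probe. Within mice the probes had a correlation of 0.17 over 24 myofibers.

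Ampd3, the isoform named for red blood cells, was not tested, since its probe A_52_P502754 was above background on only 1 of 8 WT arrays. It had values on 11 of 12 Smn1deltaSKM arrays, from -1.42 to 0.71 with a median of -0.09, and on 6 of 7 Smn1deltaSKM+AFS arrays, from -0.60 to 1.85 with a median of 0.68. The 1 WT value was -2.22 and lay below all of these. A value on at most 1 WT array and on at least 11 Smn1deltaSKM arrays was seen for 237 of 55681 probes, or 0.426%. These limits were taken from the counts of Ampd3 itself, and the 55681 include probes with no value on any array. WT arrays also had fewer usable probes at the median than Smn1deltaSKM arrays, 25156 against 31433.5. The second Ampd3 probe had no value above background on any array. The summed level of the erythroid markers with values ran from -2.38 to 4.95 in WT, from -0.53 to 4.79 in Smn1deltaSKM and from -0.45 to 5.31 in Smn1deltaSKM+AFS. The part of blood RNA in the Ampd3 values was not tested.

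Adsl, the adenylosuccinate lyase that releases AMP and fumarate, came nearest to WT after AFS cells. It ran from 2.89 to 4.12 in WT (median 3.71), from 1.85 to 3.39 in Smn1deltaSKM (median 2.80) and from 3.12 to 3.91 in Smn1deltaSKM+AFS (median 3.67). Of the 7 Smn1deltaSKM+AFS myofibers, 5 lay above all Smn1deltaSKM myofibers and none lay outside the WT range. The means were 3.62 ± 0.14, 2.78 ± 0.35 and 3.59 ± 0.08 in that order. Smn1deltaSKM+AFS lay 0.81 above Smn1deltaSKM (standard error 0.29, interval at 95% 0.15 to 1.48), which did not pass the adjusted test (limma, adjusted p = 1.00). Against WT it differed by -0.035 (interval at 95% -0.76 to 0.69, limma, adjusted p = 0.953).

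Adssl1, the muscle adenylosuccinate synthetase, and Ak1, the cytosolic adenylate kinase, had lower means in Smn1deltaSKM, with 1 mouse far below the others. Adssl1 ran from 5.55 to 6.87 in WT (median 6.44), from 3.57 to 6.24 in Smn1deltaSKM (median 5.58) and from 5.34 to 6.49 in Smn1deltaSKM+AFS (median 6.22). Ak1 ran from 5.82 to 7.27 (median 6.83), from 3.44 to 5.90 (median 5.43) and from 5.43 to 6.42 (median 6.21). The Smn1deltaSKM groups overlapped WT for both genes, although 10 of 12 Ak1 values lay below all WT values. Smn1deltaSKM against WT was -0.99 (standard error 0.42) for Adssl1 and -1.43 (0.36) for Ak1. Without Smn1deltaSKM mouse 1 these differences shrank to -0.61 and -1.10. After AFS cells Adssl1 was 0.60 higher and Ak1 0.81 higher than in Smn1deltaSKM (limma, adjusted p = 1.00 for both), and 0.22 and 0.49 higher without Smn1deltaSKM mouse 1. Against WT the Smn1deltaSKM+AFS values were -0.38 (standard error 0.46, adjusted p = 0.611 by limma) and -0.61 (standard error 0.40, adjusted p = 0.330 by limma).

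That mouse stood apart for Adssl1, Ak1 and Ckm, and not for Ampd1, where its mean was 2.48 against 2.88 and 2.29 in Smn1deltaSKM mice 2 and 3. Its mean was 4.65 for Adssl1 against 5.75 and 5.83 in those mice, 4.61 against 5.64 and 5.55 for Ak1, and 5.72 against 6.88 and 6.98 for Ckm. Its myofibers 1 to 3 were scanned on day 1, while its myofiber 4 and all myofibers of the other mice of that group were scanned on day 2. Myofiber 4 lay at 5.04 for Adssl1, 4.87 for Ak1 and 5.97 for Ckm, inside the range of myofibers 1 to 3 and below every myofiber of mice 2 and 3.

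The creatine kinases differed from each other. Ckm, the cytosolic muscle form, ran from 7.76 to 8.60 in 7 usable WT myofibers (median 8.33), from 4.68 to 7.23 in Smn1deltaSKM (median 6.73) and from 6.66 to 7.43 in Smn1deltaSKM+AFS (median 7.17). Both mutant groups lay below all usable WT myofibers and overlapped each other, and no spot was saturated. The background of genes lower without overlap was 7.04% for Smn1deltaSKM and 7.01% for Smn1deltaSKM+AFS. The means were 8.29 ± 0.08, 6.53 ± 0.70 and 7.13 ± 0.08. Smn1deltaSKM differed from WT by -1.76 (standard error 0.40), or -1.35 without its mouse 1. Smn1deltaSKM+AFS differed from WT by -1.16 (standard error 0.43, interval at 95% -2.15 to -0.16), which did not pass the test (limma, adjusted p = 0.123). It passed in 3 of 20 other settings, among them the one without Smn1deltaSKM mouse 1 (limma, adjusted p = 0.0106). The spread of that mouse enters the shared error, and without it 2276 of all 16648 genes were called higher and 2563 lower. Between the mutant groups Ckm was 0.60 higher after AFS cells (limma, adjusted p = 1.00), and 0.20 higher without that mouse.

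Ckmt2, the creatine kinase of sarcomeric mitochondria, did not go with Ckm. It ran from 3.52 to 6.07 in 7 usable WT myofibers (median 5.77), from 2.83 to 6.49 in Smn1deltaSKM (median 5.45) and from 5.65 to 7.32 in Smn1deltaSKM+AFS (median 6.59). Of the 7 Smn1deltaSKM+AFS myofibers, 6 lay above every WT myofiber and 4 above every Smn1deltaSKM myofiber. The means were 5.07 ± 0.29, 5.28 ± 0.43 and 6.61 ± 0.02. Smn1deltaSKM differed from WT by 0.21 (standard error 0.32), the smallest difference of the 8 tested members. Ckmt2 rose in Smn1deltaSKM+AFS against WT by 1.54 (standard error 0.35, interval at 95% 0.74 to 2.35), which is 2.91-fold (limma, adjusted p = 0.0407). The call was lost without WT mouse 1 (limma, adjusted p = 0.263), WT mouse 2 (0.132), Smn1deltaSKM mouse 3 (0.0606), Smn1deltaSKM+AFS mouse 1 (0.204) or Smn1deltaSKM+AFS mouse 2 (0.121), while the difference stayed between 1.34 and 1.75. It was also lost with quantile normalization (1.62, limma, adjusted p = 0.0592), with the slide as a block (1.44, adjusted p = 0.331) and with the myofibers fitted singly and the mouse as a block (1.53, adjusted p = 0.119). Against Smn1deltaSKM the level was 1.33 higher (standard error 0.32, interval at 95% 0.60 to 2.06), without passing the adjusted test (limma, adjusted p = 1.00). On scan day 2 alone the medians were 5.53 over 9 Smn1deltaSKM and 6.59 over 5 Smn1deltaSKM+AFS myofibers, and on scan day 1 they were 5.25 over 3 and 6.71 over 2.

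Ckb, the brain-type cytosolic form, gave values of opposite direction from its 2 probes. A_52_P385606, which shares 45 of 56 aligned bases with the Ckm probe, ran from 1.69 to 3.93 in WT (median 3.58), from -0.0054 to 3.10 in Smn1deltaSKM (median 2.67) and from 2.36 to 3.10 in Smn1deltaSKM+AFS (median 2.68). All 3 groups overlapped. Its mean in mouse 1 of Smn1deltaSKM was 1.01, against 2.89 and 2.72 in the other mice, and the difference from WT was -1.10 with that mouse and -0.50 without it. A_55_P1976224 had values on 5 of 8 WT arrays, at -1.57 ± 0.13, and on all others, at -0.32 ± 0.99 in Smn1deltaSKM and -1.01 ± 0.69 in Smn1deltaSKM+AFS. There mouse 1 was the high one, with a mean of 0.82 against -0.83 and -0.96. Smn1deltaSKM+AFS against WT was -0.68 for the first probe (limma, adjusted p = 0.458) and 0.55 for the second (limma over 22169 probes, adjusted p = 0.571).

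**Figure D2:**
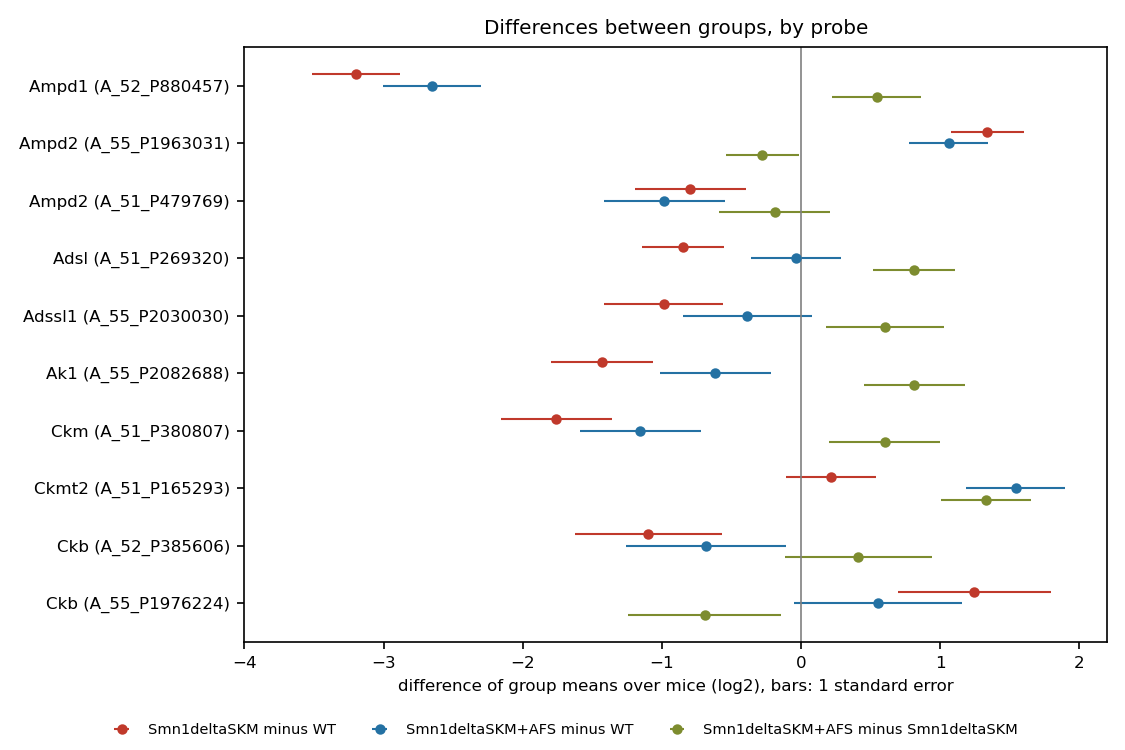
The x axis is the difference of group means over mice on the log2 scale, each row is 1 probe, points are fitted differences and bars are 1 standard error. Ampd1 lies furthest to the left in both comparisons with WT at -3.20 and -2.65, Ckmt2 lies right of 0 in both comparisons of Smn1deltaSKM+AFS, and the paired probes of Ampd2 and of Ckb fall on opposite sides of 0 against WT.

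Counted together, 8 of the 9 members were tested. In Smn1deltaSKM against WT, the comparison that chose Ampd1, 1 member was called higher and 3 lower at an adjusted p under 0.05, beside 22.0% of all genes called (8.04% higher and 13.9% lower), and nothing is read from that count. The member median was -1.04 and the median of all genes -0.11. In Smn1deltaSKM+AFS against WT, where the WT mice are the same, 1 of the 7 tested members other than Ampd1 was called, Ckmt2, and it was higher, beside 7.77% of all genes called and 3.47% called higher. The member median was -0.50 and that of all genes -0.04. In Smn1deltaSKM+AFS against Smn1deltaSKM no gene was called out of 16648, a background of 0.00%. At an unadjusted p under 0.05 limma gave 532 genes (3.20%), among them 2 members, Adsl and Ckmt2. Here 7 of 8 members were higher, with Ampd2 lower, and the median was 0.60 against 0.06 for all genes. Such a rise was not particular to the members. All 7 listed myofiber genes, Ckm among them, were higher as well, with a median of 0.79. Of the fiber type markers read below, 10 of 11 fast ones were higher (median 0.36) and 4 of 7 slow ones (median 0.04). Both comparisons of Smn1deltaSKM+AFS share mice with the one that chose Ampd1, so they are not independent of it.

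Scaling set the balance of all calls. Taking the 75th percentile over the probes measured on all arrays moved the median of all genes from -0.11 to 0.19 in Smn1deltaSKM against WT and from -0.04 to 0.11 in Smn1deltaSKM+AFS against WT. The share of calls that were higher moved from 36.6% to 67.5% and from 44.6% to 63.5%. Keeping the measured signal near background gave 47.9% and 59.0%. Against WT, the direction of Ampd1, Ampd2 (brightest probe), Adssl1, Ak1, Ckm and Ckb (brightest probe) did not change under any setting tried, whereas Adsl in Smn1deltaSKM+AFS against WT changed sign in 6 settings, between -0.13 and 0.18, and Ckmt2 in Smn1deltaSKM against WT in 1 setting, at -0.04.

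The AMP-activated protein kinase reads the ratio of AMP to ATP through its gamma subunits, and its subunit genes belong to the list of 55 other genes of purine nucleotide and creatine metabolism. Prkag3, the gamma subunit of fast glycolytic muscle, ran from 1.90 to 4.90 in WT (median 4.78), from 0.36 to 3.39 in Smn1deltaSKM (median 1.45) and from 0.43 to 3.36 in Smn1deltaSKM+AFS (median 1.20). The mutant groups reached into the WT range only past the lowest WT value, that of myofiber 8. Prkag3 fell in Smn1deltaSKM+AFS against WT by 2.55 on the log2 scale (standard error 0.33, limma, adjusted p = 0.0135). Prkag2, another gamma subunit, ran the other way, from 2.44 to 4.28 in WT (median 3.08), from 4.29 to 5.90 in Smn1deltaSKM (median 4.99) and from 3.83 to 6.13 in Smn1deltaSKM+AFS (median 4.48). It rose in Smn1deltaSKM+AFS against WT by 1.52 (standard error 0.28, limma, adjusted p = 0.0249). The third gamma subunit, Prkag1, ran from -0.27 to 0.28 in WT (median -0.03), from -2.11 to -0.55 in Smn1deltaSKM (median -1.16) and from -1.25 to 0.02 in Smn1deltaSKM+AFS (median -0.57). Its Smn1deltaSKM myofibers lay below all WT myofibers and its Smn1deltaSKM+AFS myofibers overlapped WT, with a difference from WT of -0.61 that did not pass (limma, adjusted p = 0.304). The beta subunit Prkab2 lay at 3.65 ± 0.14 in WT, 1.54 ± 1.02 in Smn1deltaSKM and 2.39 ± 0.02 in Smn1deltaSKM+AFS, and no myofiber of either mutant group reached the WT range, but the difference of -1.26 between Smn1deltaSKM+AFS and WT did not pass (limma, adjusted p = 0.179). For Prkag1 and Prkab2, the background of genes lower without overlap was 7.04% in Smn1deltaSKM and 7.01% in Smn1deltaSKM+AFS. The catalytic subunits Prkaa1 and Prkaa2 were not called in any comparison.

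**Figure D3:**
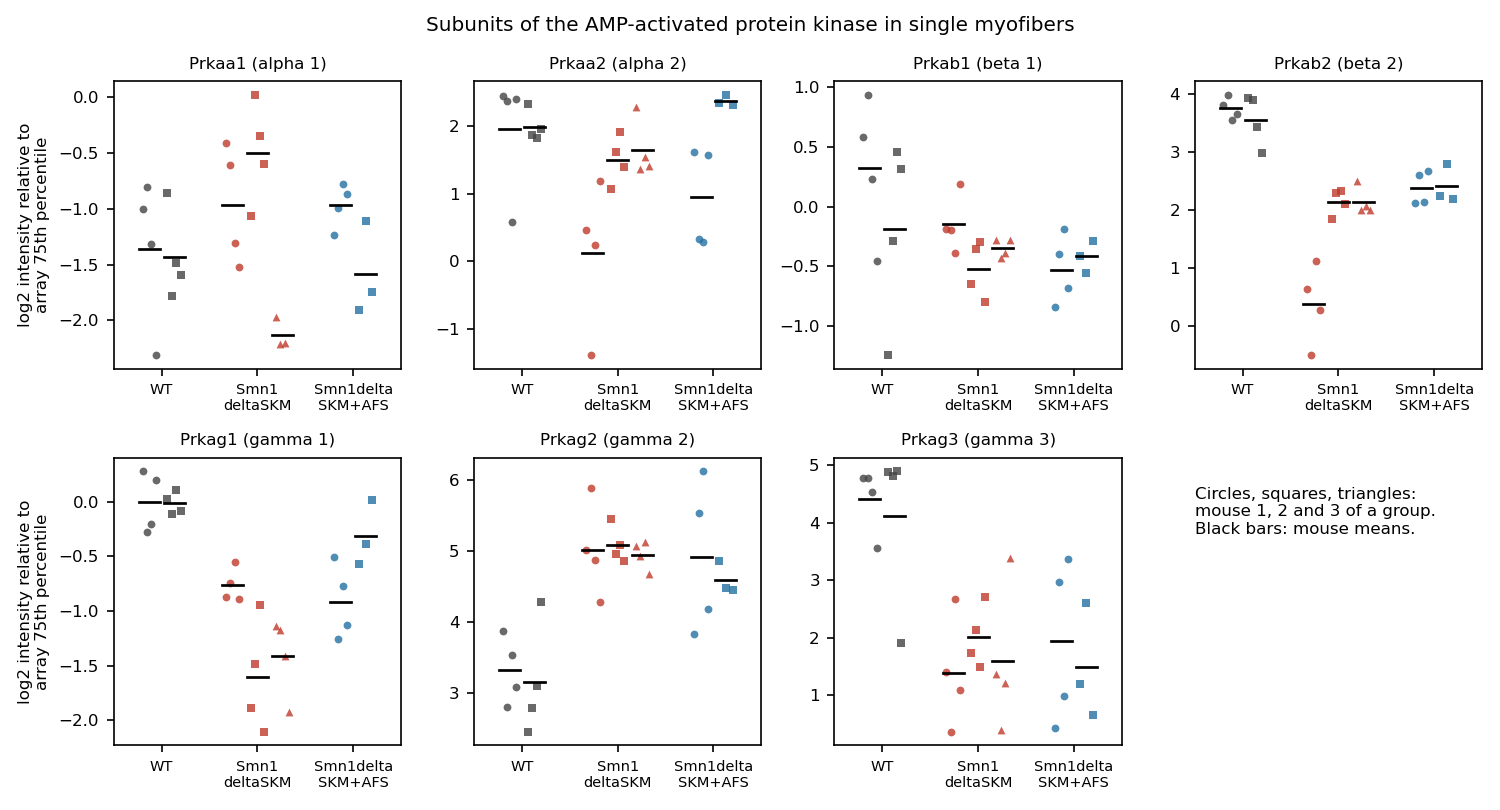
Each panel plots 1 subunit gene of the AMP-activated protein kinase, with the log2 intensity relative to the 75th percentile of the array on the y axis. Points are myofibers by group and mouse and black bars are mouse means. Prkag3 lies lower and Prkag2 higher in both mutant groups than in most WT myofibers, while Prkaa1 and Prkaa2 overlap throughout.

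Of the 55 other genes of the list, which was drawn up with earlier results known, 52 were on the array and 38 were tested. In Smn1deltaSKM+AFS against WT 1 was called higher and 4 lower, beside 7.77% of all genes called. The median of the list was -0.30, that of all genes was -0.04, and the list ranged from -2.55 to 1.52. Beside Prkag3 and Prkag2 the called genes of the list were Gamt, which makes creatine (-1.48, standard error 0.30, adjusted p = 0.0318), Nudt2, which splits diadenosine tetraphosphate (-1.35, standard error 0.29, adjusted p = 0.0363), and Prps1, which makes the ribose donor of purine synthesis (-1.14, standard error 0.27, adjusted p = 0.0439), all by limma. None of the 5 was called without WT mouse 1, WT mouse 2, Smn1deltaSKM+AFS mouse 1 or Smn1deltaSKM+AFS mouse 2, while 12 genes of the list were called without Smn1deltaSKM mouse 1 and 2 without Smn1deltaSKM mouse 2 or mouse 3. In Smn1deltaSKM against WT 2 of the list were called higher and 10 lower, beside 22.0% of all genes called, again as a description. The 6 called genes of the list with the largest differences were Prkag3 at -2.60, Prkab2 at -2.11, Prkag2 at 1.79, Ckmt1 at 1.57, Nudt2 at -1.47 and Impdh1 at -1.35. Nt5c2, a cytosolic nucleotidase, had the highest difference of the list at 1.91 and was not called. In Smn1deltaSKM+AFS against Smn1deltaSKM none was called, and differences ran from -0.59 to 1.11 with a median of 0.12.

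**Figure D4:**
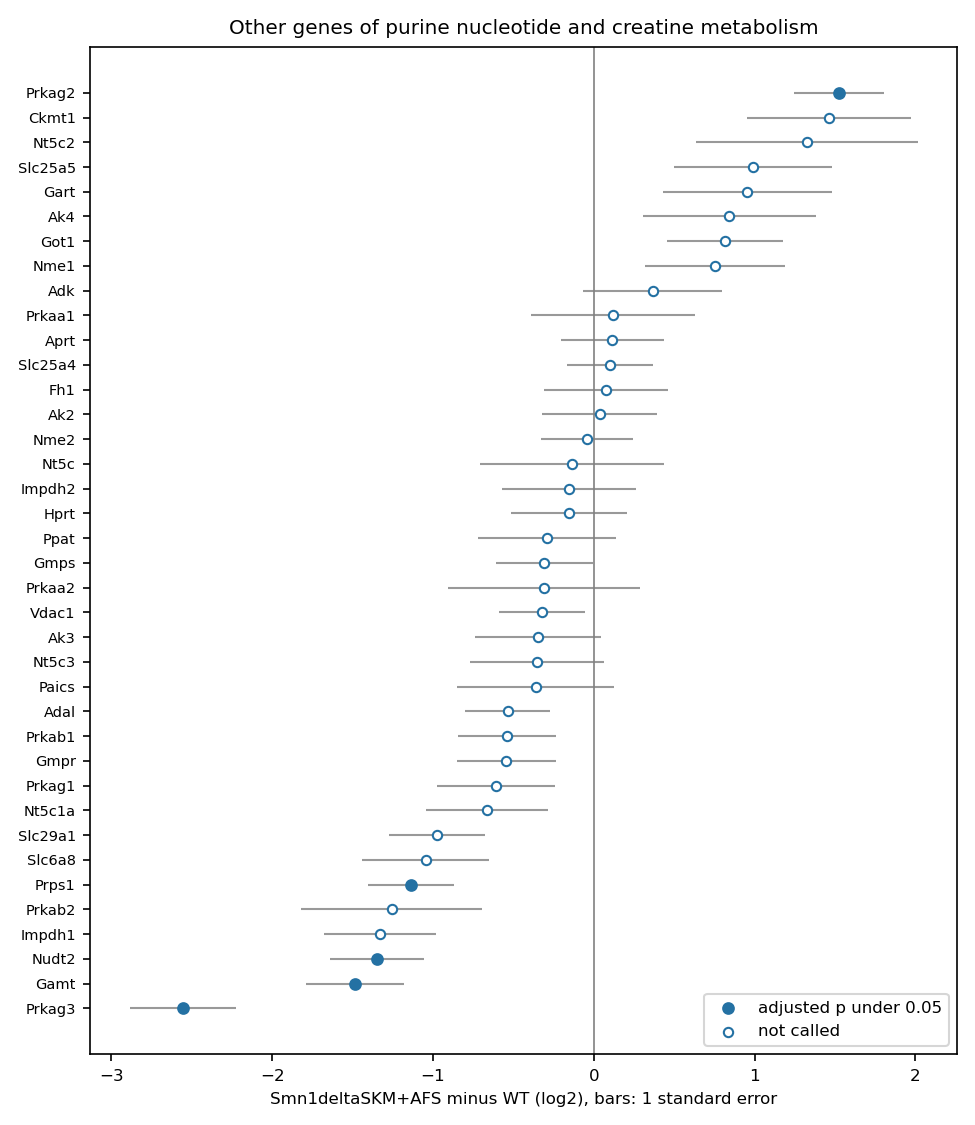
The x axis is the difference between Smn1deltaSKM+AFS and WT on the log2 scale, each row is 1 tested gene of purine nucleotide and creatine metabolism, points are fitted differences over mouse means and bars are 1 standard error. Called genes are marked, with Prkag3 at -2.55 and Prkag2 at 1.52 at the ends of the range.

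Markers of fiber type were read in the same comparisons. Of 11 tested fast fiber markers, 1 was called higher and 4 lower in Smn1deltaSKM against WT, beside the 22.0% of all genes, and 10 were lower, with a median of -0.57. Called higher was Myh1, and called lower were Actn3, Mybpc2, Myl1 and Mylpf. In Smn1deltaSKM+AFS against WT 9 were lower, with a median of -0.21, and the only one called, beside the 7.77% of all genes, was higher. That was Myh1, the myosin heavy chain of IIX fibers. It ran from -0.66 to 3.69 in WT, from 0.55 to 6.77 in 11 usable Smn1deltaSKM myofibers and from -0.27 to 7.81 in Smn1deltaSKM+AFS, and rose against WT by 3.45 (standard error 0.55, limma, adjusted p = 0.0183). Myh2, the IIA myosin, had no value on any WT array. Of 7 tested slow fiber markers, 6 were higher than in WT in each mutant group. The medians were 0.33 in Smn1deltaSKM and 0.95 in Smn1deltaSKM+AFS. The slow troponin Tnni1 alone was called in Smn1deltaSKM against WT, and was higher, beside 8.04% of all genes called higher. Myl3 alone was called in Smn1deltaSKM+AFS against WT (1.89, limma, adjusted p = 0.0420), beside 3.47% of all genes called higher. Its level was 4.98 in Smn1deltaSKM+AFS myofiber 3 and 4.47 in myofiber 7, and from -2.42 to 0.11 in the other 5, which overlapped the 5 usable WT values of -1.99 to -0.68. Without myofiber 3 the difference was 1.16 (limma, adjusted p = 0.185) and without myofiber 7 it was 0.86 (limma, adjusted p = 0.440), both settings chosen after seeing the data. The summed level of the fast list ran from 11.3 to 12.1 in WT, from 10.9 to 11.6 in Smn1deltaSKM and from 11.4 to 11.8 in Smn1deltaSKM+AFS, and that of the slow list from 4.75 to 6.09, from 4.97 to 6.53 and from 6.13 to 7.43. Of the 7 myofiber genes listed, 2 were called higher in Smn1deltaSKM+AFS against WT, and the other 5 were lower and not called, with a median over the 7 of -0.33 and a lowest value of -1.74. Those called were the oxygen store Mb, which rose by 2.33, and the Z-disc protein Actn2, by 2.34 (limma, adjusted p = 0.0252 and 0.0155). The part of fiber type in the values of Ampd1, Prkag3 and Ckmt2 was not tested.

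Other cell types were read from marker lists as well. Of 5 immune markers 4 were tested, and Cd68 and Ptprc were called higher in Smn1deltaSKM against WT, with neither called in Smn1deltaSKM+AFS against WT (limma, adjusted p = 0.0827 and 0.0621). The summed immune level ran from 4.48 to 5.16 in WT, from 4.35 to 5.10 in Smn1deltaSKM and from 4.34 to 5.28 in Smn1deltaSKM+AFS, so the ranges overlapped. No immune marker was without a value in any group. Of the tested markers of endothelium, stroma, blood, satellite cells, smooth muscle and Schwann cells, 1 or 2 a list, none was called in any comparison, and the satellite cell markers Calcr and Chrdl2 had no value on any array. The part of immune RNA in the values of Ampd2 and Ckb, which other cells also express, was not tested.

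Myofibers of a mouse differed more for some members than for others. The SD between myofibers of a mouse was 0.82 for Ampd1 and 0.99 for Ckmt2, at percentiles 94.4 and 97.3 of all genes tested. It was 0.38 for Ckm and 0.23 for Ampd2, at percentiles 32.5 and 3.12, with a median of 0.44 over all genes. Ckb stood high in the SD between mice of a group, at 0.74 and percentile 91.1.

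After the mean of each mouse was subtracted, some members ran together from myofiber to myofiber. The values share an array and its scaling, and are given as a description. Adssl1 and Ak1 had a correlation of 0.90 over 27 myofibers and Ak1 and Ckm of 0.83 over 26. Smn1deltaSKM myofiber 2 was the lowest of all for these genes, and without it the values were 0.86 and 0.75. Adsl went with Ckmt2 at 0.66 over 26. Ckm went with the first Ckb probe at 0.57 over 26 myofibers and with the second at 0.66 over 23, which fell to 0.44 for each without Smn1deltaSKM myofiber 2. Ampd1 ran at 0.30 with Ckm, 0.07 with Ak1 and -0.39 with Ckmt2, and without that myofiber at 0.44, 0.11 and -0.39.

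The correlations of Ampd1 went both ways among 26 genes taken from the fiber type, pathway and myofiber lists. These are a part of the lists, and of the slow markers only Tnni1 and Myl3 are among them. The values were 0.79 with Prkag3, 0.76 with the fast light chain Mylpf and 0.74 with the fast myosin binding protein Mybpc2. They were 0.69 with Gamt, 0.68 with the fast marker Pvalb and 0.61 with Myh4, the IIB myosin. With the slow markers they were 0.38 for the troponin Tnni1 over 24 myofibers and -0.34 for Myl3 over 21. They were -0.42 with Myh1 over 26, -0.62 with Actn2 and -0.76 with Mb, and the median over the 26 genes was 0.04. Ckmt2 ran highest, among the same 26 genes, at 0.73 with Actn2, 0.64 with Myh1 and 0.63 with Mb. It ran lowest at -0.56 with Prkag3, -0.46 with Gamt and -0.34 with Mybpc2. With Tnni1 it ran at 0.15 over 23 myofibers and with Myl3 at 0.23 over 20, and the median was 0.06. Among 10141 genes with values on all 27 arrays, those most like Ampd1 were ENSMUST00000111835 and 6330409N04Rik at 0.87, Ptpla and Lrpap1 at 0.82 and Cacng1 at 0.81, and those least like it were Ybx2 at -0.78 and Lpl at -0.77. Among 10279 genes with values on the 26 arrays of Ckm, those most like Ckm were Ubac1 at 0.92, Slc44a2 at 0.91, a transcript named only by its place on chromosome 14 at 0.91, Gpi1 at 0.91 and Asph at 0.90, and those least like it were ENSMUST00000108743 at -0.90 and Stmn4 at -0.86.

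**Figure D5:**
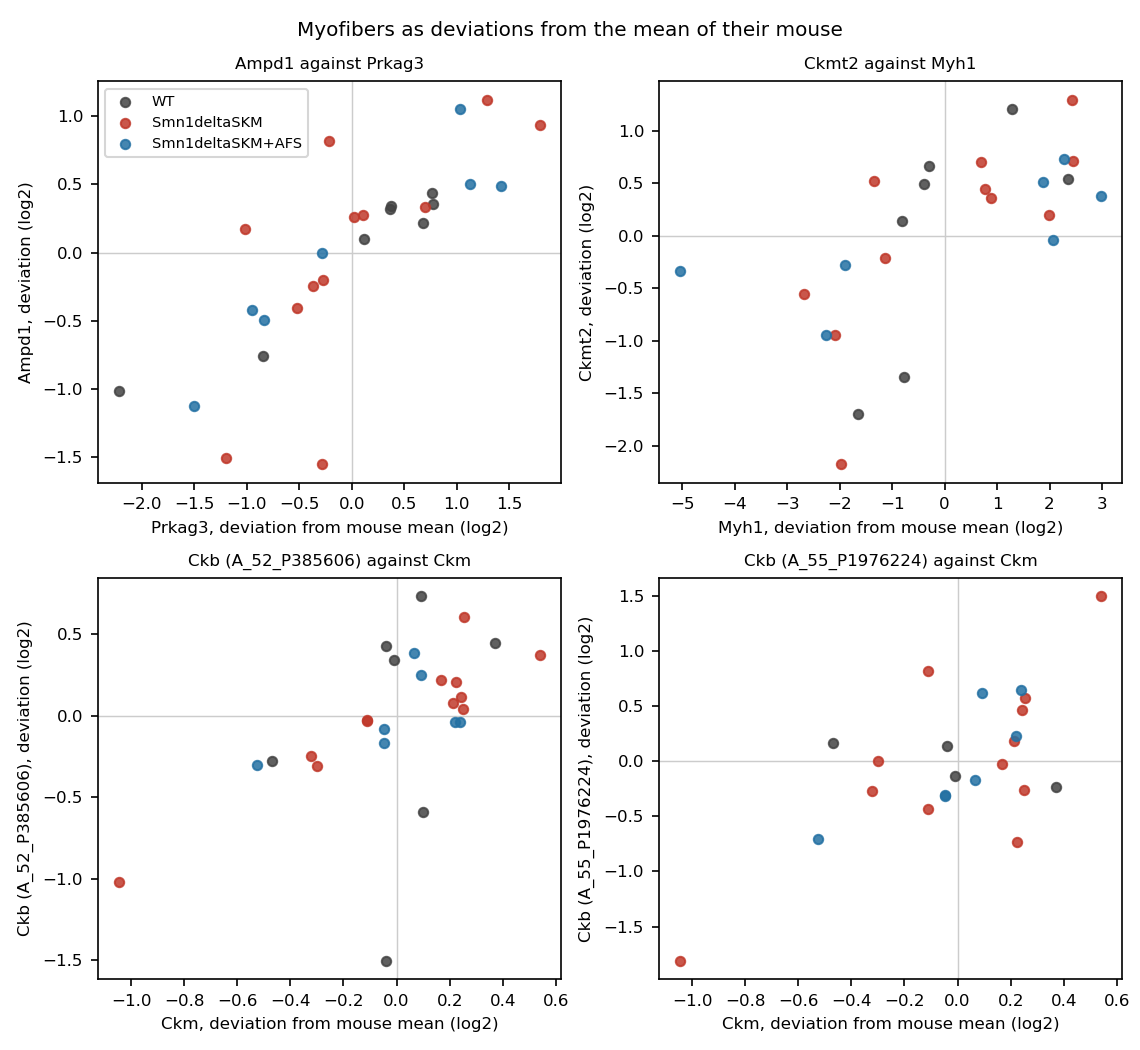
Each point is 1 myofiber as its deviation from the mean of its mouse on the log2 scale, coloured by group, for Ampd1 against Prkag3, Ckmt2 against Myh1 and both Ckb probes against Ckm. Ampd1 rises with Prkag3 in all 3 groups, and the lowest Ckm point, Smn1deltaSKM myofiber 2, is also low for both Ckb probes.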

How the data were processed

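Cy3 arrays (Agilent mouse, 60-base probes) were hybridized with cDNA of single myofibers amplified in 18 cycles. The intensity is the processed signal that the authors deposited from Agilent Feature Extraction 10.7.3.1, background-subtracted and detrended within each array, with spot flags and mm9 positions per the file headers. Here log2 was taken and the 75th percentile of each array subtracted. Spots not found, not well above background or uneven were left out, and repeat spots were averaged. The filter asked for a usable value on 75% or more of the 27 arrays, which 22169 of 55681 probes met, and the brightest probe stood for a gene. Myofibers were averaged by mouse, and limma 3.58.1 (R 4.3.3) compared the 7 mouse means in 3 groups, with Benjamini-Hochberg adjustment over 16648 genes. A call is an adjusted p under 0.05. Mice, not arrays, are the replicates, and their number limits the precision. On simulated data with 200 changed genes, 57% of log2 changes of 2 and 85% of 3 were recovered between the mutant groups, and 41% and 78% between Smn1deltaSKM+AFS and WT.

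The authors' value table holds linear intensity values deposited for the same arrays, with a correlation of 0.9987 or more with the log2 scanner signal within an array and column medians from 5.84 to 7.47 on log2. Direction matches the scanner signal, the values are not centred, and the normalization between arrays is not given in the sources used here. It served as an alternative, as did other scalings, filters, blocks and leaving out each mouse. The members and gene lists were chosen with earlier results of these data known. All members are named and each of their probes is described. Also named are called genes of the other lists, up to the 6 largest differences in each comparison, and the 5 genes most and 2 least correlated with Ampd1 and with Ckm. Sequences and gene names come from the array files, and RefSeq accessions were matched to symbols. The study's methods count 25 arrays, and its results describe 5 AFS-treated fibers.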

Additional observations from a re-analysis of the deposited data

Results flagged for a closer look

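In Ckm, WT myofiber 8 lay at 7.76 while the nearest of the other 6 usable WT myofibers lay at 8.30. The gap was 0.647 of the range of the 7 values. It was the only such myofiber among 21 groups of values tested, where chance marks about 1 in 20. All 21 were of WT or Smn1deltaSKM+AFS, and the larger Smn1deltaSKM groups were not put through this check. There the lowest Ckm value was 4.68, in Smn1deltaSKM myofiber 2, and the next lowest was 5.97. WT myofiber 8 was the lowest of its group for Ampd1 at 4.61 and Adssl1 at 5.55, and held the lowest WT value of Prkag3, 1.90. It still lay above every mutant myofiber for Ckm.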

How the results depend on the processing

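In Smn1deltaSKM against WT 3656 genes (22.0%), 4 members and 12 other pathway genes were called. Against WT after AFS cells the counts were 1293 (7.77%), 2 and 5, and between the mutant groups 0, 0 and 0. The 4 and 2 members include Ampd1, which was chosen for its fall against WT, so nothing is read from these member counts. In Smn1deltaSKM against WT, quantile normalization called 1234 of 16648 genes higher and 1481 lower. The authors' table called 1281 of 18727 higher and 1723 lower. The first set of 3 counts moved to 2 members and 6 pathway genes with quantile normalization or the authors' table, 2 members with normexp or with probes on all arrays, 7 pathway genes with the percentile over probes on all arrays, 5908 genes with the mouse as a random block, 1810 genes and 4 pathway genes with the slide as a block, and 9081, 7 and 21 with no block. The second set moved to 719, 1 and 3 with quantile normalization, to 1 member and 3 pathway genes with normexp, to 796, 1 and 3 with the authors' table, to 2 pathway genes with the percentile over probes on all arrays, 1952 genes with the measured signal kept, 564, 1 and 2 with no filter, 848 genes and 1 member with probes on all arrays, 3393 genes with the mouse as a random block, 6937, 4 and 16 with no block, 1 member and 0 pathway genes with the slide as a block, and 2104 genes without the Smn1deltaSKM myofibers of scan day 1. Between the mutant groups 20 genes, no member, were called with no block and 0 under every other setting, scan day as a block and scan day 2 alone included. Causes were not tested.

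Leaving out each mouse gave 0 to 7230 genes, 0 to 4 members and 0 to 17 pathway genes in Smn1deltaSKM against WT, and 0 to 4839, 0 to 4 and 0 to 12 in Smn1deltaSKM+AFS against WT. The count of 0 genes came without WT mouse 1, and after AFS cells also without WT mouse 2 or Smn1deltaSKM+AFS mouse 1, and the highest gene counts came without Smn1deltaSKM mouse 1. A lone mouse was assumed to vary like the others. The labels do not say that mice of the same number in different groups are paired. Their deviations from the group means had correlations of -0.06 to 0.31. These cannot decide on pairing, since the deviations of the 2 mice in WT or in Smn1deltaSKM+AFS mirror each other. With the number as a replicate block the counts were 2379, 4 and 9, then 939, 2 and 3. Ampd1 stayed between -3.72 and -2.43 against WT, and between -2.98 and -2.02 after AFS cells. Ckmt2 in Smn1deltaSKM+AFS against WT had adjusted p from 0.0108 to 0.331 and was called in 9 of 21 settings, the one reported included. Mouse number and dim signal limit Ampd3 and both Ampd2 probes.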
